A study of Mus musculus with 17 samples.

Results

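Complement genes were followed in the whole lungs of 17 male mice, 1 array per mouse, after lipopolysaccharide (LPS, endotoxin) or saline. The set held 9 genes picked by name: the C1q chains C1qa, C1qb and C1qc, C4b, C3, Cfb, the inhibitor Serping1 and the anaphylatoxin receptors C3ar1 and C5ar1. Of these 9, 8 had values among the 12393 genes with a probe set that names them alone or, for C4b, a probe set that names C4a and C4b together, so that this value is written C4a/C4b. No probe set was named as C3 in the annotation used, and C3 was not analysed here. The mice were wild-type C57BL/6J or carried the label NOS2-/-, the loss of inducible nitric oxide synthase, and had received either normal saline or 20 mg/kg of LPS from Escherichia coli O111:B4 into a vein. LPS lungs were taken at 7 h and at 22 h, from 3 mice of each genotype at each time. Saline lungs came from 4 wild-type mice and from 1 NOS2-/- mouse, so the groups number 6. For the age of the mice and the strain background of the NOS2-/- mice the sources used here give nothing. The saline lungs were taken at 22 h only, so each comparison of 7 h of LPS with saline also differs in time after injection.

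Complement is a cascade of serum proteins that tags microbes and damaged cells for removal. The classical pathway starts when C1q, assembled from the C1qa, C1qb and C1qc chains, binds a target and its proteases cleave C4 and C2, while the alternative pathway amplifies cleavage of C3 through factor B, the product of Cfb. The peptides C3a and C5a released on the way act on myeloid cells through C3ar1 and C5ar1, and the C1 inhibitor made from Serping1 restrains the first proteases. The liver makes most of the circulating components, macrophages are a main source of C1q, and lung cells make several components themselves.

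Values are log2 signals of Affymetrix MOE430A probe sets, and array medians lay between 8.46 and 8.55. A difference of 1 on this scale is 2-fold, a gene was called when its limma p value adjusted over 22626 probe sets was under 0.05, and signals of different probe sets were not set against each other. The lung label was borne out by the surfactant gene Sftpb, with 13.95 ± 0.13 (SD, n = 4) in wild-type saline lungs. The probe set for Nos2, the gene deleted in the NOS2-/- mice, was not called lower in them at 7 h of LPS, at 8.938 ± 0.079 against 8.997 ± 0.066 in wild-type mice (SD, n = 3 each; limma adjusted p = 0.843), and was called higher in them at 22 h, at 9.15 ± 0.14 against 8.49 ± 0.31 (difference 0.66 ± 0.16 SE, adjusted p = 0.0123). In NOS2-/- mice it also rose after 22 h of LPS (0.85 ± 0.23, adjusted p = 0.0113). The sources used here do not place this probe set relative to the deleted part, so it checks no label, and NOS2-/- stands for the label throughout. Replicate 2 of the wild-type LPS 22 h group stood apart, correlating with its group mates at 0.955 and 0.949 over all probe sets, against 0.996 between those mates, and it was the lowest of its group for 7 of the 8 genes. The single NOS2-/- saline lung carried squamous epithelial markers at a mean of 9.80 (wild-type saline 7.80 to 7.94) and skeletal muscle markers at 9.40 (6.92 to 7.10). Its adipose markers, at 9.18 (8.29 to 8.63), and fibroblast markers, at 11.93 (11.56 to 11.7), also lay above the wild-type saline range. This lung lay above all 4 wild-type saline lungs for C1qa, C1qb, C1qc and Serping1 and within their range for the other 4 genes. The NOS2-/- LPS groups are therefore also compared with the 4 wild-type saline lungs, and the wild-type LPS 22 h values without replicate 2 are given where they changed a call or moved a called value by over 1.5 times.

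**Figure D1:**
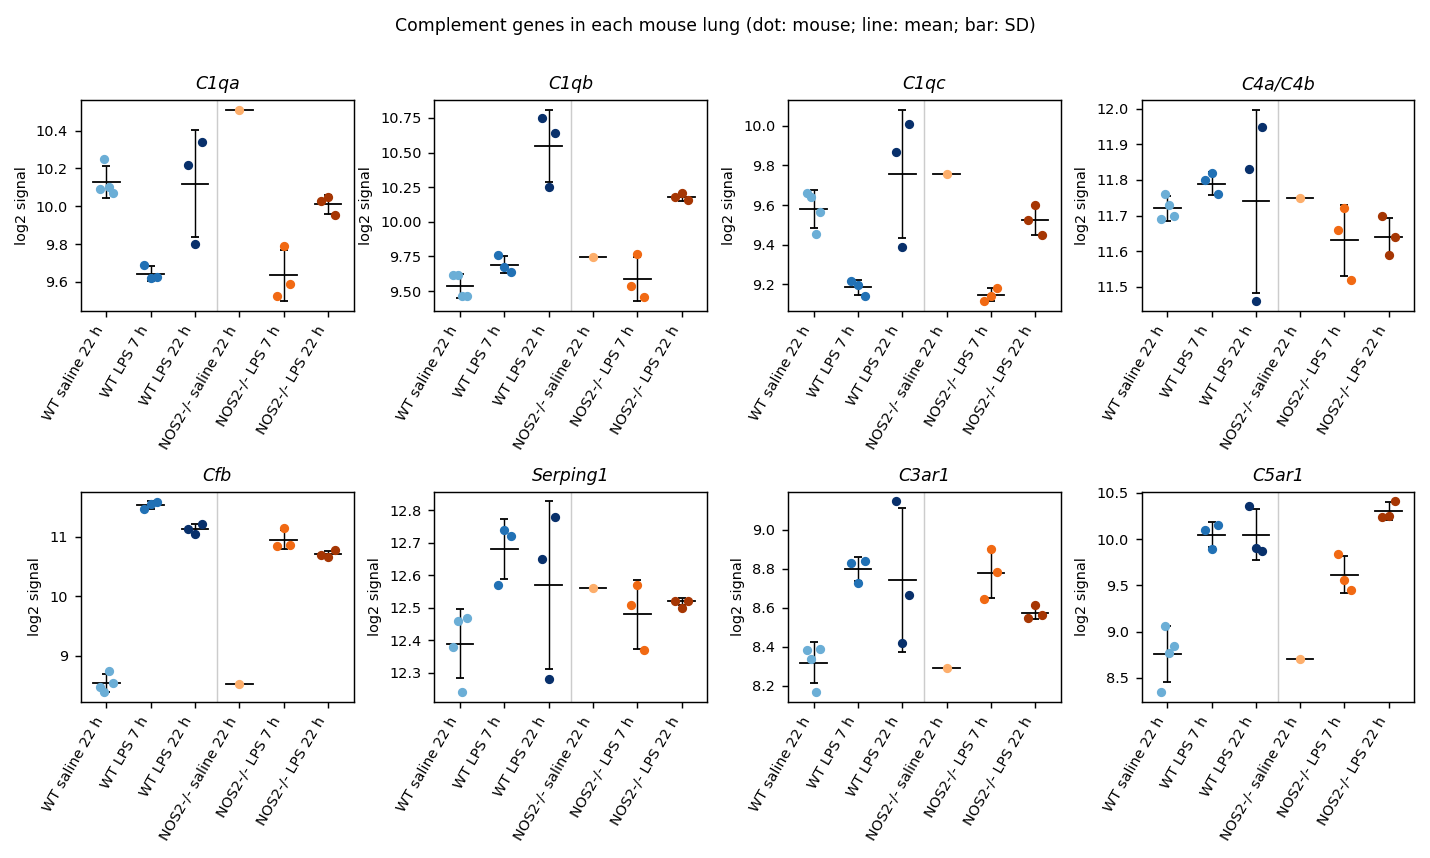
Log2 signal (y axes, 1 scale per gene) of the 8 complement genes in each mouse, by group on the x axis; dots are mice, lines are group means and bars are SD (none for the single NOS2-/- saline mouse). Every Cfb value after LPS, 10.66 or more, lies above every saline value, 8.74 or less, and in the wild-type LPS 22 h group replicate 2 is the lowest dot for 7 of the 8 genes.

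Cfb, which encodes the serine protease of the alternative pathway C3 convertase, had the largest LPS response of the set. Its signal in wild-type saline lungs was 8.47, 8.38, 8.74 and 8.54. At 7 h of LPS it was 11.46, 11.55 and 11.58, and at 22 h it was 11.13, 11.04 and 11.21. NOS2-/- lungs gave 8.53 after saline, 10.85, 11.15 and 10.86 at 7 h, and 10.69, 10.66 and 10.77 at 22 h. All 12 LPS lungs lay above all 5 saline lungs, and at each time all 3 NOS2-/- lungs lay below all 3 wild-type lungs. In wild-type mice LPS raised Cfb 7.98-fold at 7 h (log2 change 3.00 ± 0.09 SE, limma adjusted p = 2.55e-12) and 6.04-fold at 22 h (2.59 ± 0.09, adjusted p = 1.81e-11). The NOS2-/- rises were 5.37-fold at 7 h (2.43 ± 0.14, adjusted p = 8.03e-09) and 4.53-fold at 22 h (2.18 ± 0.14, adjusted p = 2.43e-08). With the wild-type saline mice as the control the NOS2-/- values were nearly the same, 2.42 and 2.17.

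After LPS, Cfb was lower in NOS2-/- than in wild-type lungs by 0.58 ± 0.10 on the log2 scale at 7 h (1.49-fold, limma adjusted p = 0.0133) and by 0.42 ± 0.10 at 22 h (1.34-fold, adjusted p = 0.00789). The 7 h call was lost, with differences of -0.61, -0.56, -0.55 and -0.53 and adjusted p values of 0.054, 0.0681, 0.0637 and 0.0893, when wild-type LPS 7 h replicate 1, 2 or 3 or NOS2-/- LPS 7 h replicate 3 was left out. Between 7 h and 22 h Cfb fell by 0.40 ± 0.10 in wild-type mice (adjusted p = 0.0147), a call that was lost without wild-type LPS 7 h replicate 2 (-0.39, adjusted p = 0.0591) or 3 (-0.38, adjusted p = 0.0643) under quantile normalization (-0.27, adjusted p = 0.0958) and in a fit of the compared groups alone (adjusted p = 0.0817). The NOS2-/- change was -0.25 ± 0.10 (adjusted p = 0.155). The order of the group means was wild-type LPS 7 h, wild-type LPS 22 h, NOS2-/- LPS 7 h, NOS2-/- LPS 22 h and then the saline groups, and the ranges of wild-type LPS 22 h and NOS2-/- LPS 7 h overlapped.

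Cfb lies at chr17:34856374-34862514 (GRCm38.p6), 87 bases from C2 at chr17:34862602-34882100, the gene for the protease that has the matching role in the classical pathway. C2 also rose after LPS, by 0.83 ± 0.16 (7 h) and 0.67 ± 0.16 (22 h) in wild-type lungs and by 0.74 ± 0.24 and 0.88 ± 0.24 in NOS2-/- mice, with limma adjusted p values between 0.000761 and 0.0387. Against the wild-type saline lungs the NOS2-/- rises were 0.68 ± 0.16 and 0.83 ± 0.16. C4b lies on the same chromosome at chr17:34728139-34743902, and its near copy C4a, annotated as a transcribed pseudogene, at chr17:34809092-34823460.

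The chains of C1q, the recognition unit of the classical pathway, moved differently from Cfb: C1qa and C1qc were lower 7 h after LPS and no longer called at 22 h in wild-type mice, while C1qb rose at 22 h. The genes lie side by side on chromosome 4 within 18.7 kb, C1qb at chr4:136880126-136886200, C1qc at chr4:136889801-136892936 and C1qa at chr4:136895916-136898844 (GRCm38.p6). The 250 bases upstream of the start sites of C1qb (chr4:136886201-136886450, minus strand) and C1qc (chr4:136892915-136893164, minus strand; its last bases lie inside the annotated gene) are shown from RefSeq because these neighbours rose together between 7 h and 22 h. Capitals mark matches to ACTTCCT, a core bound by the myeloid factor PU.1 and other ETS factors, and to an NF-kB type core, GGGA followed after any 4 bases by CC, on either strand.
C1qb: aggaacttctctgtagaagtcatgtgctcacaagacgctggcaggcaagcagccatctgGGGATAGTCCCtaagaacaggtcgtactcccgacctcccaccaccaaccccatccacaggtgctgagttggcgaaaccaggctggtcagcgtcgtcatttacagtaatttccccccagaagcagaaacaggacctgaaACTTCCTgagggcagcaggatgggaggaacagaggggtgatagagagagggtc
C1qc: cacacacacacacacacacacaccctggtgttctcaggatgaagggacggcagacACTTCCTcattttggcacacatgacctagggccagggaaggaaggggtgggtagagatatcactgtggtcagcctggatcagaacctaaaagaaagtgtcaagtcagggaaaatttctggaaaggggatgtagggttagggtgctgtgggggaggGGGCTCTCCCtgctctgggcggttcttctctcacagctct
ACTTCCT begins 53 bases before the C1qb start and 195 bases before the C1qc start. The NF-kB type core matches C1qb on each strand, in overlapping letters that begin 191 and 190 bases before the start, and C1qc once, 40 bases before it, on the opposite strand. ACTTCCT was found in 7.69% and the NF-kB type core in 17.6% of 32851 RefSeq promoter windows of the same length, so such matches are common, and they are letters in a window, not sites shown to be bound. Promoters of 4 genes of the set were in the RefSeq table. The C5ar1 window also held ACTTCCT, 190 and 72 bases before the start that the RefSeq table uses, but the annotated gene reaches beyond that start and both matches lie inside it. In addition, the C3ar1 window held the AP-1 letters TGANTCA 22 bases before the start, found in 6.75% of windows. The interferon-stimulated response element, searched as GAAA, any 2 bases and GAAA (2.98% of windows), TTCNNNGAA, a gamma-activated site (7.02%), and TTGCNNAA, of the C/EBP type (9.56%), were in none of the 4 windows. No window for Cfb, C4b, C1qa or Serping1 was in the table.

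C1qa, the A chain, measured 10.09, 10.25, 10.10 and 10.07 in wild-type saline lungs, 9.69, 9.62 and 9.62 at 7 h of LPS and 10.22, 9.80 and 10.34 at 22 h. The single NOS2-/- saline lung had 10.51 and the NOS2-/- LPS lungs had 9.53, 9.79 and 9.59 at 7 h and 10.03, 10.05 and 9.95 at 22 h. The 7 h lungs of both genotypes lay below all saline lungs, and in wild-type mice the 22 h and saline values overlapped. C1qa fell by 0.48 ± 0.11 at 7 h in wild-type mice (1.4-fold, limma adjusted p = 0.00207) and by 0.88 ± 0.16 in NOS2-/- mice (1.84-fold, adjusted p = 0.000818), and the latter was a fall by 0.49 ± 0.11 (adjusted p = 0.0017) against the wild-type saline mice. At 22 h the wild-type difference was -0.01 (95% interval -0.23 to 0.22), and 0.15 ± 0.08 (adjusted p = 0.135) without wild-type LPS 22 h replicate 2. The NOS2-/- fall at 22 h, by 0.50 ± 0.16 (adjusted p = 0.0284), rested on the single saline lung: against the wild-type saline mice it was -0.12 ± 0.11 (adjusted p = 0.438), and it was also lost without NOS2-/- LPS 22 h replicate 3 (-0.47, adjusted p = 0.0674). From 7 h to 22 h C1qa rose by 0.47 ± 0.11 in wild-type mice (adjusted p = 0.0132), a call lost without wild-type LPS 7 h replicate 2 (0.46, adjusted p = 0.0534) and in a fit of the compared groups alone (adjusted p = 0.206). The NOS2-/- difference was 0.38 ± 0.11 (adjusted p = 0.0562, and 0.0482 with a difference of 0.45 without NOS2-/- LPS 7 h replicate 2).

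C1qc, the C chain, followed C1qa. Its signal was 9.66, 9.64, 9.45 and 9.56 in wild-type saline lungs, 9.22, 9.20 and 9.14 at 7 h and 9.87, 9.39 and 10.01 at 22 h. NOS2-/- lungs gave 9.76 after saline, 9.12, 9.14 and 9.18 at 7 h and 9.52, 9.60 and 9.45 at 22 h. All 6 lungs at 7 h lay below all 5 saline lungs. The fall at 7 h was by 0.40 ± 0.11 in wild-type mice (1.32-fold, limma adjusted p = 0.0115) and by 0.61 ± 0.17 in NOS2-/- mice (1.52-fold, adjusted p = 0.0156), or by 0.43 ± 0.11 (adjusted p = 0.00608) against the wild-type saline lungs. At 22 h C1qc differed from saline by 0.18 ± 0.11 in wild-type mice (adjusted p = 0.262), which became a rise by 0.36 ± 0.07 (adjusted p = 0.000492) without wild-type LPS 22 h replicate 2. The NOS2-/- difference at 22 h was -0.23 ± 0.17 (adjusted p = 0.364), and -0.06 ± 0.11 (adjusted p = 0.755) against the wild-type saline lungs. From 7 h to 22 h C1qc rose by 0.57 ± 0.12 in wild-type mice (adjusted p = 0.0054), a call lost in a fit of the compared groups alone (adjusted p = 0.173), and the NOS2-/- difference of 0.37 ± 0.12 was not called (adjusted p = 0.0696). Over the 17 arrays C1qa and C1qc had a Pearson correlation of 0.919, C1qa and C1qb of 0.379 and C1qb and C1qc of 0.591, as descriptions over arrays that share the group differences.

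C1qb, the B chain, measured 9.61, 9.62, 9.47 and 9.46 in wild-type saline lungs, 9.76, 9.68 and 9.64 at 7 h and 10.75, 10.25 and 10.64 at 22 h. Values in NOS2-/- lungs were 9.75 after saline, 9.54, 9.76 and 9.46 at 7 h and 10.18, 10.21 and 10.16 at 22 h. All 3 wild-type lungs at 22 h lay above every other lung of the series, the lowest of them close to the NOS2-/- lungs of the same time. C1qb rose 2.01-fold at 22 h in wild-type mice (1.01 ± 0.10, limma adjusted p = 1.65e-06) and differed by 0.15 ± 0.10 at 7 h (adjusted p = 0.313). The NOS2-/- difference was -0.16 ± 0.16 at 7 h (adjusted p = 0.512) and 0.43 ± 0.16 at 22 h (adjusted p = 0.0523). Against the wild-type saline mice the 7 h difference turned to 0.05 ± 0.10 (adjusted p = 0.768), and that at 22 h was a rise by 0.64 ± 0.10 (adjusted p = 0.00012). Against the single NOS2-/- saline lung the 22 h difference passed, at 0.43 ± 0.11 (limma adjusted p = 0.00348), once wild-type LPS 22 h replicate 2 was left out of the fit. From 7 h to 22 h C1qb rose in wild-type (0.85 ± 0.11, adjusted p = 0.00015) and in NOS2-/- mice (0.60 ± 0.11, adjusted p = 0.00412).

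The C1qb probe set used here, the brightest of its probe sets, had a pair of companions whose calls differed. The wild-type rise at 22 h was called by 1 of them (0.90 ± 0.15, limma adjusted p = 0.000227) and not by the other (0.50 ± 0.22, adjusted p = 0.0953), and neither called the rise between the times in either genotype, where their differences lay between 0.33 and 0.50. At 22 h C1qb was lower in NOS2-/- than in wild-type lungs by 0.36 ± 0.11 (adjusted p = 0.0361). The other probe sets gave -0.19 ± 0.23 and -0.18 ± 0.16 (adjusted p = 0.623 and 0.498). Leaving out any of NOS2-/- LPS 22 h replicates 1, 2 and 3 or wild-type LPS 22 h replicates 1 and 3 lost the call, as did a fit of the compared groups alone (adjusted p = 0.222). The adjusted p values without each of these mice were 0.0998, 0.0806, 0.105, 0.125 and 0.0885, while without wild-type LPS 22 h replicate 2 the difference was -0.51 ± 0.09 (adjusted p = 0.000287).

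C4a/C4b, for the component cleaved by the C1 and lectin proteases, and Serping1, for the C1 inhibitor, moved little. C4a/C4b was 11.69, 11.76, 11.73 and 11.70 in wild-type saline lungs, 11.80, 11.82 and 11.76 at 7 h of LPS and 11.83, 11.46 and 11.95 at 22 h. Values in NOS2-/- lungs were 11.75 after saline, 11.66, 11.72 and 11.52 at 7 h and 11.70, 11.59 and 11.64 at 22 h. The wild-type groups overlapped, and C4a/C4b was called in none of the comparisons. Its LPS differences in wild-type mice were 0.07 at 7 h (95% interval -0.13 to 0.27) and 0.02 at 22 h (-0.18 to 0.22). Those in NOS2-/- mice were -0.11 (-0.41 to 0.19) and -0.10 (-0.40 to 0.20), and -0.09 ± 0.09 and -0.08 ± 0.09 against the wild-type saline lungs. Without wild-type LPS 22 h replicate 2 the wild-type difference at 22 h was 0.17 ± 0.07 (limma adjusted p = 0.0509).

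Serping1 (chr2:84765360-84775444, GRCm38.p6) was 12.38, 12.46, 12.24 and 12.47 in wild-type saline lungs, 12.57, 12.74 and 12.72 at 7 h and 12.65, 12.28 and 12.78 at 22 h. NOS2-/- lungs gave 12.56 after saline, 12.51, 12.57 and 12.37 at 7 h and 12.52, 12.50 and 12.52 at 22 h. The wild-type 7 h lungs all lay above the wild-type saline lungs, the wild-type 22 h lungs overlapped them, and the NOS2-/- LPS lungs lay between 12.37 and 12.57, near the single NOS2-/- saline lung. The rise at 7 h in wild-type mice was small (0.29 ± 0.10, 1.22-fold, limma adjusted p = 0.0398) and was not called without wild-type saline replicate 1 (0.29, adjusted p = 0.0719) or 3 (0.24, adjusted p = 0.109), without wild-type LPS 7 h replicate 2 (0.26, adjusted p = 0.139) or 3 (0.27, adjusted p = 0.127), or under quantile normalization (0.17, adjusted p = 0.106). At 22 h the wild-type difference was 0.18 ± 0.10 (adjusted p = 0.192), and without replicate 2 of that group it was a rise by 0.33 ± 0.08 (adjusted p = 0.00253). The NOS2-/- differences were -0.08 ± 0.15 and -0.05 ± 0.15 (adjusted p = 0.752 and 0.87). Their sign turned against the wild-type saline lungs, with 0.10 ± 0.10 at 7 h and 0.13 ± 0.10 at 22 h (adjusted p = 0.509 and 0.366).

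C5ar1, the receptor for C5a on neutrophils and macrophages, rose in every LPS group. C3ar1, the receptor for C3a, was called higher in wild-type mice. Its 7 h change in NOS2-/- mice was of similar size but not called against the single saline lung. C5ar1 (chr7:16246743-16259540, GRCm38.p6) was 8.34, 9.06, 8.76 and 8.85 in wild-type saline lungs, 10.10, 9.89 and 10.15 at 7 h of LPS and 10.36, 9.91 and 9.87 at 22 h. Values in NOS2-/- lungs were 8.70 after saline, 9.84, 9.56 and 9.45 at 7 h and 10.24, 10.25 and 10.41 at 22 h. All 12 LPS lungs lay above all 5 saline lungs, and the NOS2-/- lungs at 7 h were the lowest of the LPS lungs. The wild-type rises were 2.45-fold at 7 h (1.29 ± 0.16, limma adjusted p = 9.03e-06) and 2.45-fold at 22 h (1.29 ± 0.16, adjusted p = 8.99e-06). The NOS2-/- rises were 1.89-fold at 7 h (0.91 ± 0.24, adjusted p = 0.0104) and 3.03-fold at 22 h (1.60 ± 0.24, adjusted p = 0.000107), and with wild-type saline lungs as the control they were 0.86 ± 0.16 and 1.55 ± 0.16.

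Between 7 h and 22 h C5ar1 differed little in wild-type mice (0.00, 95% interval -0.35 to 0.36) and rose by 0.69 ± 0.17 in NOS2-/- mice (limma adjusted p = 0.0198). That rise was not called without NOS2-/- LPS 7 h replicate 2 (0.66, adjusted p = 0.0682) or 3 (0.60, adjusted p = 0.103), or without NOS2-/- LPS 22 h replicate 1 (0.72, adjusted p = 0.0541), 2 (0.71, adjusted p = 0.0575) or 3 (0.63, adjusted p = 0.0886). The test of the difference between the courses gave 0.68 ± 0.24 (adjusted p = 0.139), and 0.84 ± 0.23 (adjusted p = 0.0464) without wild-type LPS 22 h replicate 1. At 7 h C5ar1 was 0.43 ± 0.17 lower on the log2 scale in NOS2-/- lungs with no overlap of the groups, which did not pass over all probe sets (adjusted p = 0.151), and passed at 0.0479 once wild-type LPS 22 h replicate 2 was left out of the fit.

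C3ar1 (chr6:122847140-122856157, GRCm38.p6) was 8.39, 8.34, 8.17 and 8.39 in wild-type saline lungs, 8.83, 8.73 and 8.84 at 7 h and 9.15, 8.42 and 8.66 at 22 h. NOS2-/- lungs gave 8.29 after saline, 8.65, 8.90 and 8.78 at 7 h and 8.55, 8.61 and 8.57 at 22 h. Every LPS lung lay above every saline lung, although wild-type LPS 22 h replicate 2 did so only narrowly. In wild-type mice C3ar1 rose by 0.48 ± 0.13 at 7 h (1.39-fold, limma adjusted p = 0.00785) and by 0.42 ± 0.13 at 22 h (1.34-fold, adjusted p = 0.0165). The 22 h call rested on wild-type LPS 22 h replicate 1, without which the difference was 0.22 ± 0.09 (adjusted p = 0.0797). It was also lost in a fit of the compared groups alone (adjusted p = 0.117), and the dimmer C3ar1 probe set gave 0.26 ± 0.13 (adjusted p = 0.134). The NOS2-/- differences were 0.49 ± 0.19 at 7 h (adjusted p = 0.0847) and 0.29 ± 0.19 at 22 h (adjusted p = 0.32, and 0.126 with a difference of 0.26 against the wild-type saline lungs). At 7 h the dimmer probe set passed (0.57 ± 0.19, adjusted p = 0.043), as did the comparison with the wild-type saline mice (0.46 ± 0.13, adjusted p = 0.00992) and the fit without wild-type LPS 22 h replicate 2 (adjusted p = 0.0117).

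**Figure D2:**
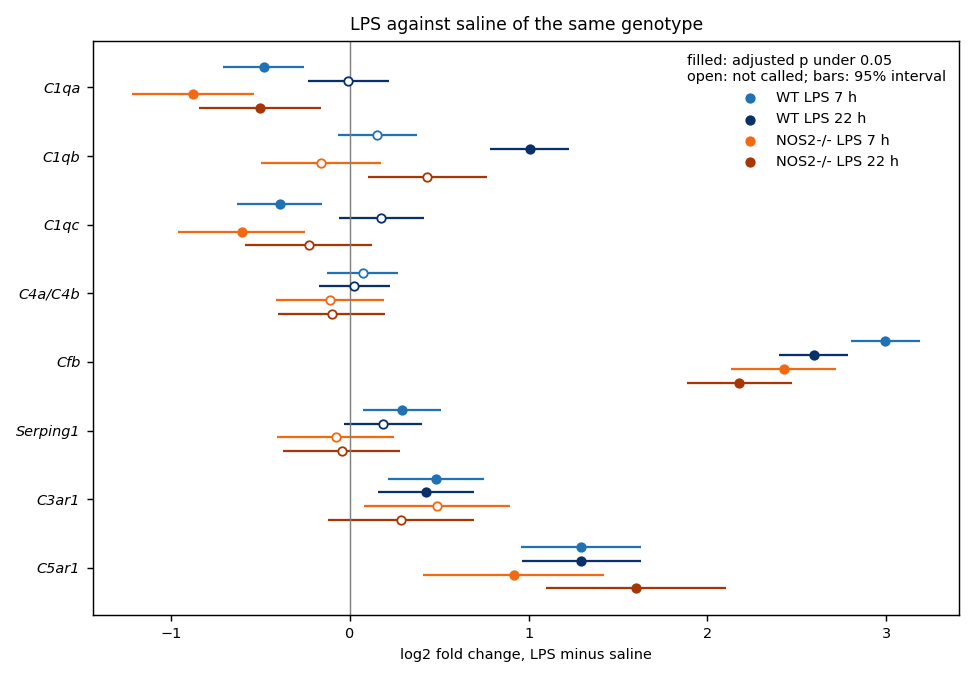
Log2 fold change of LPS against saline of the same genotype (x axis) for the 8 complement genes (y axis) at 7 h and 22 h; bars are 95% intervals from the limma fit and filled dots passed an adjusted p of 0.05. Cfb and C5ar1 are filled on the right in all 4 comparisons, and C1qa and C1qc are filled on the left at 7 h in both genotypes.

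Set against all probe sets, the 8 genes were called as follows. In wild-type mice at 7 h, 4 rose (Cfb, C5ar1, C3ar1 and Serping1) and 2 fell (C1qa and C1qc), where 14.4% of all probe sets rose and 17.9% fell. At 22 h in wild-type mice 4 rose (Cfb, C5ar1, C3ar1 and C1qb) and 0 fell, against 12.8% and 20.0% of all probe sets, and without wild-type LPS 22 h replicate 2 the count was 6, with C1qc and Serping1 added. In NOS2-/- mice at 7 h 2 rose (Cfb and C5ar1) and 2 fell (C1qa and C1qc), against 8.78% and 13.7%. At 22 h in NOS2-/- mice 2 rose (Cfb and C5ar1) and 1 fell (C1qa), against 11.6% and 16.0%. Compared with the wild-type saline lungs the NOS2-/- counts were 3 up (C3ar1 added) and 2 down at 7 h, where 15.4% and 21.3% of all probe sets were called, and 3 up (C1qb added) and 0 down at 22 h, where 17.9% and 22.8% were. In both genotypes the rises made up a larger share of the 8 genes than of all probe sets, also with the wild-type saline lungs as the control. These rises were of 2 to 4 genes with all arrays, and the falls of 0 to 2. The genes were chosen with earlier results of these data known. Nothing particular to the set is drawn from these rises or falls, whose counts are so small. The 7 h and 22 h comparisons of a genotype share its saline lungs, so they are not independent of each other. The median LPS change of the 8 genes was 0.22 and 0.30 in wild-type lungs (7 h and 22 h) and -0.10 and 0.12 in NOS2-/- mice, while the median over all 22626 probe sets was -0.05, -0.00, 0.04 and 0.03.

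From 7 h to 22 h, the C1q chains rose together in wild-type mice: 3 genes rose (C1qa, C1qb and C1qc) and 1 fell (Cfb), where 3.15% of all probe sets rose and 7.68% fell. Without wild-type LPS 7 h replicate 2 this count of 4 was 2, and in a fit of the 2 groups alone it was 1, C1qb. In NOS2-/- mice 2 genes rose (C1qb and C5ar1) and 0 fell, against 4.65% and 3.16%. That count was 4, with C1qa (0.38 ± 0.07, limma adjusted p = 0.00133) and C1qc (0.37 ± 0.07, adjusted p = 0.000685) added, once wild-type LPS 22 h replicate 2 was left out of the fit, and 1 without any of NOS2-/- LPS 22 h replicates 1, 2 and 3 or NOS2-/- LPS 7 h replicate 3. The change between the times differed between the genotypes for 0 genes in either direction, against 2.49% of all probe sets higher and 0.544% lower in NOS2-/- mice. The smallest unadjusted limma p values were for C5ar1 (0.0113) and C1qb (0.12), so 1 of the 8 was under 0.05 before adjustment. Without wild-type LPS 22 h replicate 2 the test passed for C1qb (-0.40 ± 0.11, adjusted p = 0.0406) and C1qc (-0.38 ± 0.10, adjusted p = 0.0297), and without wild-type LPS 22 h replicate 1 for C5ar1.

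Between the genotypes, the lower Cfb of NOS2-/- lungs was the difference found at both times. At 7 h 1 gene was lower (Cfb) and 0 higher, where 1.48% of all probe sets were lower and 0.526% higher. This count of 1 was 0 without any of the wild-type LPS 7 h replicates or without NOS2-/- LPS 7 h replicate 3, and 2, with C5ar1 added, without wild-type LPS 22 h replicate 2. At 22 h 2 genes were lower (Cfb and C1qb) and 0 higher, against 6.81% and 9.63%. The count at 22 h turned on wild-type LPS 22 h replicate 2. Without it 6 genes were lower in NOS2-/- lungs: Cfb with -0.46, C1qb with -0.51, C1qc with -0.41, C3ar1 with -0.33, C1qa with -0.27 and C4a/C4b with -0.24, with limma adjusted p values between 0.000287 and 0.0376. Serping1 (-0.20, adjusted p = 0.0875) and C5ar1 (0.18, adjusted p = 0.481) did not pass there. The count was 1, Cfb alone, without any other single array of the 22 h LPS groups. With all arrays the 95% intervals of the genotype difference at 22 h ran from -0.35 to 0.13 for C1qa, -0.48 to 0.02 for C1qc, -0.31 to 0.11 for C4a/C4b and -0.46 to 0.12 for C3ar1.

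**Figure D3:**
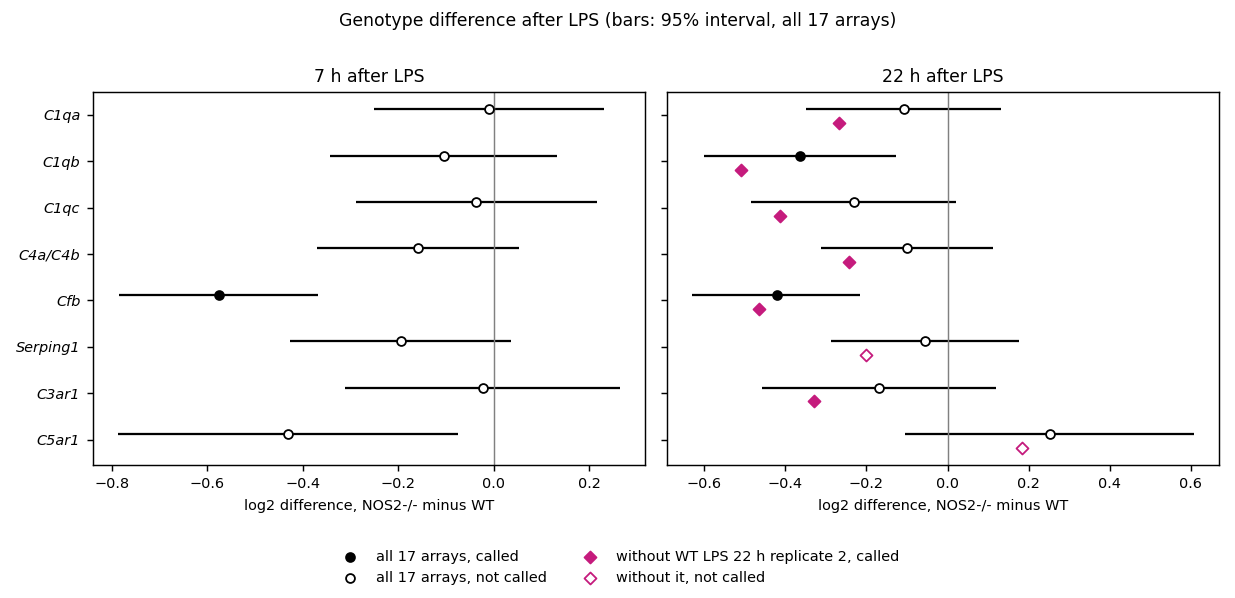
Log2 difference NOS2-/- minus wild-type (x axis) for each complement gene (y axis) 7 h and 22 h after LPS; circles with 95% intervals use all 17 arrays, diamonds leave out wild-type LPS 22 h replicate 2, and filled symbols passed an adjusted p of 0.05. Cfb is filled left of 0 at both times, and at 22 h the filled symbols go from 2 circles to 6 diamonds.

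Neutrophil markers rose after LPS, as Cfb and C5ar1 did. Single monocyte and macrophage markers went both ways, while their mean signal was higher in every LPS group than in saline lungs. C1qa and C1qc fell at 7 h, and C4a/C4b was not called. In bulk lung, more cells of a type and more RNA per cell cannot be told apart. Of 12 neutrophil markers 11 were measured, and all 11 rose in wild-type lungs at each time and in NOS2-/- mice at 22 h, with 9 rising in NOS2-/- mice at 7 h. The mean neutrophil marker signal was 9.30 to 9.57 in wild-type saline lungs, 11.82 to 11.99 at 7 h and 11.97 to 12.16 at 22 h, and in NOS2-/- lungs 9.65 after saline, 11.54 to 11.78 at 7 h and 12.10 to 12.14 at 22 h. The C5ar1 signal ran in the same order of groups in NOS2-/- mice, and its dependence on neutrophil content was not tested. Of 13 monocyte and macrophage markers 11 were measured. Their mean signal was 9.86 to 9.965 in wild-type saline lungs, 10.74 to 10.81 at 7 h and 10.58 to 10.85 at 22 h. In NOS2-/- lungs it was 9.95 after saline, 10.5 to 10.68 at 7 h and 10.5 to 10.53 at 22 h. In wild-type mice 7 rose and 2 fell at each time, in NOS2-/- mice 3 rose and 1 fell at 7 h and 3 rose and 3 fell at 22 h, and at 22 h 5 were lower and 0 higher in NOS2-/- than in wild-type lungs. Csf1r, the macrophage growth factor receptor, was among those 5 (-0.46 ± 0.09, limma adjusted p = 0.00345), and the part of macrophage content in the C1q values was not tested. Of 10 alveolar macrophage markers 8 were measured. In wild-type mice 2 rose and 3 fell at 7 h, and 4 rose and 4 fell at 22 h. In NOS2-/- mice 1 rose and 1 fell at 7 h, and 2 rose and 3 fell at 22 h. Beside these marker counts, 14.4% of all probe sets rose and 17.9% fell in wild-type mice at 7 h, and 12.8% and 20.0% at 22 h. For NOS2-/- mice the shares were 8.78% and 13.7%, and 11.6% and 16.0%. Between genotypes at 22 h 6.81% were lower and 9.63% higher in NOS2-/- lungs. Other lists held such calls too: 3 lower and 2 higher of 11 neutrophil markers, and 2 and 1 of 8 alveolar macrophage markers. For 10 endothelial markers the counts were 4 lower and 2 higher, for 9 fibroblast markers 2 and 5, and for 7 alveolar type 2 markers 2 and 3. The mean signal of 9 measured liver markers lay between 8.05 and 8.53 in all lungs.

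Of 39 other complement genes listed, 32 were measured. In wild-type mice 7 of the 32 rose and 5 fell at 7 h, where 14.4% of all probe sets rose and 17.9% fell, and 5 rose and 8 fell at 22 h, against 12.8% and 20.0%. In NOS2-/- mice 7 rose and 2 fell at 7 h, against 8.78% and 13.7%, and 4 rose and 5 fell at 22 h, against 11.6% and 16.0%. Nothing particular to these genes is read from the counts. With the wild-type saline lungs as the control the NOS2-/- counts were 6 up and 4 down at 7 h and 7 up and 6 down at 22 h, and with wild-type LPS 22 h replicate 2 left out they were 10 and 4 at 7 h and 8 and 6 at 22 h, both settings chosen after seeing the data. Their median change was -0.07 and 0.03 in wild-type mice and 0.18 and 0.11 in NOS2-/- mice.

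Among the initiators, C1ra, a C1 protease, rose most. Its signal was between 9.46 and 9.73 in wild-type saline lungs and between 10.52 and 11.22 in wild-type LPS lungs, a rise by 1.5 ± 0.13 at 7 h (limma adjusted p = 1.99e-07) and 1.29 ± 0.13 at 22 h (adjusted p = 1.05e-06). In NOS2-/- mice it rose by 1.02 ± 0.19 and 1.00 ± 0.19, or by 1.19 ± 0.13 and 1.17 ± 0.13 against the wild-type saline lungs. C1s1, its partner protease, rose by 0.39 ± 0.12 in wild-type mice at 7 h and differed by 0.01 ± 0.12 at 22 h, which became a rise by 0.22 ± 0.07 (adjusted p = 0.0261) without wild-type LPS 22 h replicate 2. Colec12, a scavenger collectin on endothelium, fell in all 4 LPS comparisons, by 0.62 ± 0.11 and 0.77 ± 0.11 in wild-type and by 0.89 ± 0.17 and 0.76 ± 0.17 in NOS2-/- mice, or by 0.50 ± 0.11 and 0.37 ± 0.11 against the wild-type saline lungs. Of 10 endothelial markers, all measured, 7 also fell in each of those 4 comparisons. At 7 h and 22 h, 1 and 2 of the 10 rose in wild-type mice and 0 and 1 in NOS2-/- mice. Of all probe sets 17.9% and 20.0% fell in wild-type mice, and 14.4% and 12.8% rose. In NOS2-/- mice 13.7% and 16.0% fell, and 8.78% and 11.6% rose. The mean signal of the 10 endothelial markers was 11.5 to 11.59 in wild-type saline lungs and 9.88 to 10.4 in wild-type LPS lungs. It was 11.45 in the NOS2-/- saline lung and 9.96 to 10.23 in NOS2-/- LPS lungs. Of 9 fibroblast markers 6 fell at each time in wild-type mice, and 8 at 7 h and 6 at 22 h in NOS2-/- mice. A rise was called for 1 of the 9, in wild-type mice at 22 h. Of 7 alveolar type 2 markers measured, of 8 listed, 6 fell at each time in wild-type mice, and 2 and 4 in NOS2-/- mice. In each of the 4 comparisons 1 of the 7 rose. The part of these cells in the falls of Colec12, Hc, Vtn and Cd55 was not tested. All NOS2-/- marker counts of LPS against saline rest on the single NOS2-/- saline lung. Its fibroblast marker mean was 11.93, against 11.56 to 11.7 in wild-type saline lungs. Marker counts were not taken with the wild-type saline lungs as the control of NOS2-/- mice. In the alternative pathway, Cfp, the gene for properdin, which stabilizes the convertase that factor B forms, rose with Cfb, by 0.75 ± 0.09 and 1.01 ± 0.09 in wild-type and by 0.80 ± 0.14 and 1.01 ± 0.14 in NOS2-/- mice, or by 0.58 ± 0.09 and 0.80 ± 0.09 against the wild-type saline lungs. Of the 6 terminal components measured, the gene for C5, Hc, fell in wild-type mice from 12.28 to 12.56 after saline to between 11.93 and 12.09 at 7 h and between 10.95 and 11.33 at 22 h, by 0.47 ± 0.10 and 1.30 ± 0.10. In NOS2-/- mice Hc fell by 0.83 ± 0.15 at 22 h, and its difference at 7 h was -0.19 ± 0.15 (adjusted p = 0.392). Against the wild-type saline lungs it fell at both times, by 0.44 ± 0.10 (adjusted p = 0.00199) and 1.08 ± 0.10.

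Of 8 receptors listed, C3ar1 and C5ar1 included, 7 were measured. In wild-type mice 4 rose and 1 fell at 7 h, and 4 rose and 2 fell at 22 h. The shares of all probe sets were 14.4% rising and 17.9% falling at 7 h, and 12.8% and 20.0% at 22 h. In NOS2-/- mice 2 rose and 0 fell at 7 h (8.78% and 13.7%), and 2 rose and 2 fell at 22 h (11.6% and 16.0%). Itgam, the alpha chain of complement receptor 3, had the largest LPS changes of the listed receptors in wild-type mice, 3.11 ± 0.19 at 7 h and 3.53 ± 0.19 at 22 h. Itgam was 6.77 to 7.22 in wild-type saline lungs, 9.96 to 10.29 at 7 h and 10.09 to 11.06 at 22 h, and in NOS2-/- lungs 7.30 after saline, 8.63 to 9.21 at 7 h and 9.39 to 9.52 at 22 h. The groups of the genotypes did not overlap at either time after LPS. Itgam was lower in NOS2-/- lungs by 1.20 ± 0.20 at 7 h (limma adjusted p = 0.0121) and by 1.11 ± 0.20 at 22 h (adjusted p = 0.00142). Itgb2, its beta chain, rose by 0.94 ± 0.13 and 1.15 ± 0.13 in wild-type mice and was lower by 0.59 ± 0.14 in NOS2-/- lungs at 22 h. Of 12 regulators measured, Serping1 included, 2 rose and 1 fell at 7 h and 4 fell at 22 h in wild-type mice, beside the shares of all probe sets of 14.4% and 17.9% at 7 h and 20.0% falling at 22 h. In NOS2-/- mice 1 rose and 1 fell at 7 h, and 0 rose and 1 fell at 22 h, beside the shares given for the receptors. Cr1l, a membrane regulator of C3 and C4 fragments, rose by 0.59 ± 0.07 at 7 h in wild-type mice, differed by -0.05 ± 0.07 at 22 h (0.05 ± 0.06 without wild-type LPS 22 h replicate 2), and fell by 0.64 ± 0.08 between those times. Cd55, decay accelerating factor, fell by 0.70 ± 0.11 at 22 h in wild-type mice and by 0.64 ± 0.17 and 0.80 ± 0.17 at 7 h and 22 h in NOS2-/- mice, or by 0.33 ± 0.11 and 0.49 ± 0.11 against the wild-type saline lungs. Vtn, for vitronectin, which blocks the membrane attack complex, fell by 0.75 ± 0.15 and 0.85 ± 0.15 in wild-type mice, and Cd59a, another inhibitor of that complex, fell by 0.50 ± 0.13 at 22 h, and by 0.27 ± 0.07 without wild-type LPS 22 h replicate 2.

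**Figure D4:**
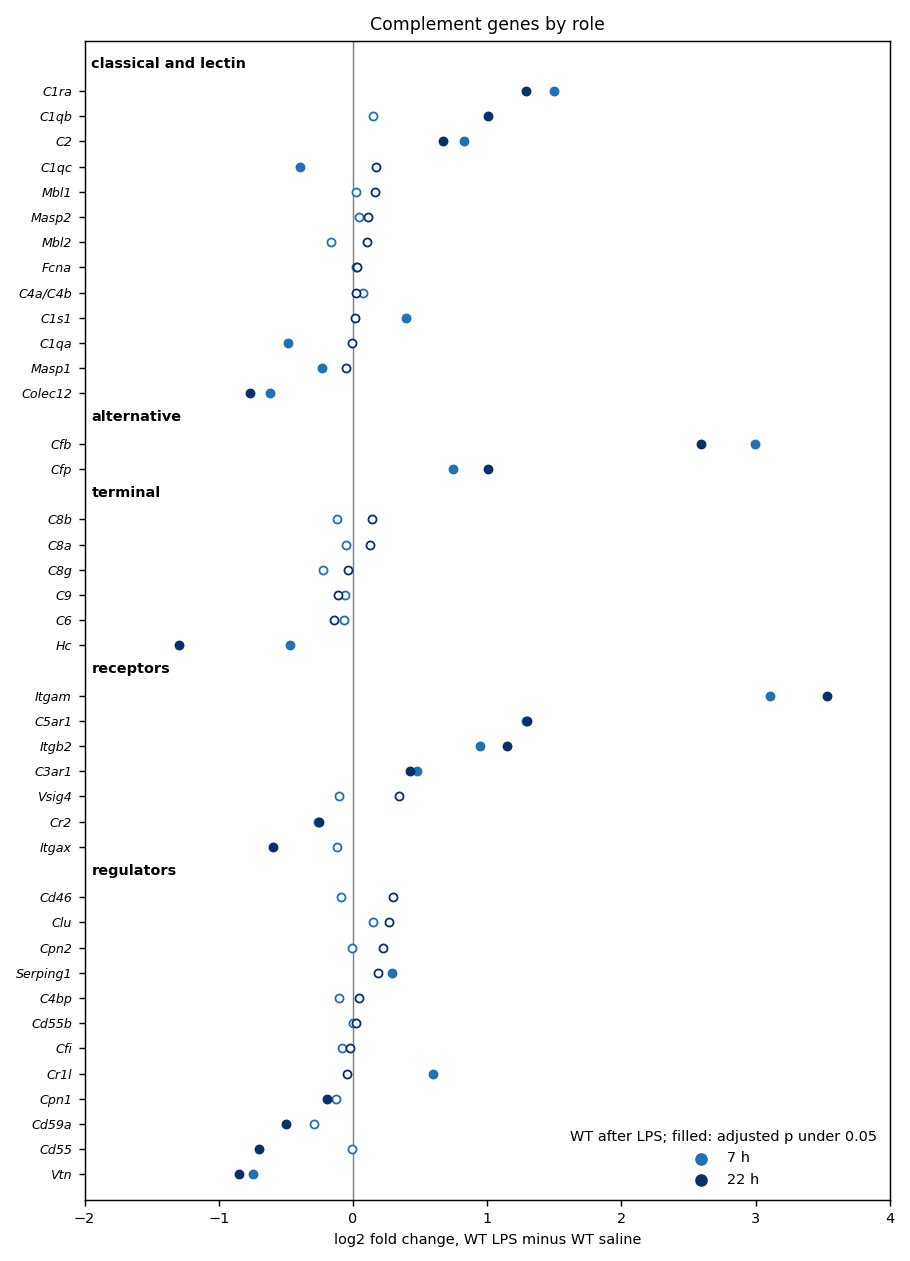
Log2 fold change of LPS against saline in wild-type mice (x axis) for the measured complement genes grouped by role (y axis) at 7 h and 22 h; filled dots passed an adjusted p of 0.05. Itgam, at 3.11 and 3.53, and Cfb, at 3.00 and 2.59, lie furthest to the right, and Hc, at -1.30 at 22 h, furthest to the left.

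The genes whose signal was most like each complement gene over the 17 arrays differed from gene to gene. By Pearson correlation they were Snx10 (0.99) and Zbp1 (0.988) for Cfb, Qsox1 (0.979) and Spi1 (0.965), the gene for PU.1, for C5ar1, Alox5ap (0.969) and Taldo1 (0.954) for C1qb, and Itgb3 (0.935) and Tnfsf9 (0.909) for C3ar1. They were Dhrs7 (0.924) and Fuca1 (0.918) for C1qa, Popdc3 (0.912) and Tmem43 (0.91) for C1qc, B3galnt1 (0.919) and Spcs1 (0.912) for C4a/C4b, and Ctsz (0.876) and Cmpk1 (0.852) for Serping1. Within the set, Cfb went with C5ar1 (0.866) and C3ar1 (0.792) and against C1qa (-0.607). These values describe arrays that share treatments and array scaling, and carry no test.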

How the data were processed

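RNA of whole lungs from 17 mice was hybridised to Affymetrix MOE430A arrays. The deposited log2 values were made by the authors with the affy package in R (background correction, normalization and expression values), for which the sources used here give no version or options. The study's methods also name Affymetrix GeneChip 5.0 software. Of 22690 probe sets, 64 controls were left out and 22626 tested. Samples were grouped by their labels, and replicates are separate mice. Probe sets were named from GEO's platform annotation, with symbols updated by gene ID to GRCm38.p6. Of the probe sets, 20380 named 1 gene, 691 several and 1555 none. Of several probe sets for a gene, the brightest over all arrays was used.

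A limma model (version 3.58.1, R 4.3.3) with a mean for each group was fitted to all 17 arrays, and 9 comparisons were taken from it, after the script was tested on simulated data. P values were adjusted by Benjamini-Hochberg over all probe sets, with a call at an adjusted p under 0.05, and intervals are 95% intervals of the fit. The single NOS2-/- saline mouse was assumed to vary like the other groups. The number of mice limits the precision. All 9 complement genes were named, and of the other complement genes up to 4 called ones per list and comparison, by size of change, 2 genes most like each, and up to 3 markers of a list by mean signal. The genes and lists were chosen with earlier results of these data known, so no list is independent evidence of its direction, and no test was made over a list. Alternatives were another normalization, filters, array weights, the replicate block, the compared groups alone, other probe sets, other controls and leaving out each replicate.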

Additional observations from a re-analysis of the deposited data

Results flagged for a closer look

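C1qa, the A chain of C1q, had 1 wild-type saline lung far from the other 3. Replicate 2 read 10.25 against 10.07 to 10.10, and the gap is 0.842 of the range of the 4 lungs, above the value of Dixon's test for 4 samples. Chance gives such a gap in about 1 in 20 groups, and each of the 8 genes was checked, so that 1 flag among them is less rare than that. The C1qa fall at 7 h in wild-type mice was called without that lung as with it.

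C4a/C4b was flagged because its 7 h LPS lungs lay above the saline mean in wild-type mice and below the saline value in NOS2-/- mice. The 3 wild-type lungs were at 11.76 to 11.82 against a saline mean of 11.72, and the 3 NOS2-/- lungs at 11.52 to 11.72 against 11.75 in the single NOS2-/- saline lung. The NOS2-/- change minus the wild-type change was -0.184, and this difference was not tested. Neither change passed its own test, with adjusted p values of 0.631 and 0.619 by limma.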

How the results depend on the processing

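The 26 called gene comparisons kept their direction in all 402 values recomputed under the alternatives, and 49 of these values were no longer called. The 46 uncalled ones gave 750 values, of which 54 passed. The counts of genes called, out of 8, changed by over 1.5 times as follows. At an adjusted p under 0.01 they were 2 for NOS2-/- LPS 7 h against saline, 0 and 1 for NOS2-/- against wild-type at 7 h and 22 h, and 2 and 1 for the change from 7 h to 22 h in wild-type and NOS2-/- mice. With array quality weights, whose fit stopped before it converged and which gave wild-type LPS 22 h replicate 2 a weight of 0.0411, they were 6 for NOS2-/- LPS 22 h against saline, 3 and 5 for the genotype difference at 7 h and 22 h, 6 for the NOS2-/- change between the times, and 2 for its genotype difference. With the compared groups alone they were 6, 2, 1 and 4 for the same first 4, and 1 for the wild-type change between the times. With wild-type LPS 22 h replicate 2 left out of all fits, chosen after seeing the data, they were 2 for the genotype difference at 7 h and 4 for the NOS2-/- change between the times, which was also 4 with array medians subtracted, with quantile normalization and with probe sets under the 40th percentile of mean signal left out. With the mean of all probe sets of a gene the genotype difference at 22 h gave 1. The labels number the replicates and do not say whether same-numbered mice share a source. Of 30 same-numbered pairs 4 deviated together with a correlation over 0.1 (range -0.432 to 0.362), which cannot decide this with so few arrays per group. With the replicate number as a block the count was 1 for the genotype difference at 22 h and 1 for the NOS2-/- change between the times, and the calls of Serping1 and C1qc at 7 h (adjusted p = 0.0734 in wild-type and 0.0625 in NOS2-/- mice) and of C1qa at 22 h in NOS2-/- mice (0.0761) were lost, each by limma. Leaving out 1 mouse at a time gave 5 to 6 genes for wild-type LPS at 7 h and 3 to 6 at 22 h, 4 to 4 and 2 to 3 for NOS2-/- LPS, 0 to 1 and 1 to 6 for the genotype difference at 7 h and 22 h, 2 to 4 and 1 to 2 for the change between the times in wild-type and NOS2-/- mice, and 0 to 2 for its genotype difference. All groups share 1 estimate of the spread in the fit. In comparisons that do not hold wild-type LPS 22 h replicate 2, leaving it out therefore changed the SE and not the difference. For C1qc between the times in NOS2-/- mice it was 0.375 ± 0.118 with that array and 0.375 ± 0.067 without. The causes of the other shifts were not tested. Where 1 saline mouse is the control, or 3 mice stand against 3, small differences such as those of Serping1 were at the limit of detection.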
